A study of Magallana angulata with 8 samples.

Results

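The comparison described here set the tissues of unexposed oysters with high body Cu against those with low body Cu. Its members were 4 of the 8 digital gene expression (DGE) libraries of the series, namely G1-H and M1-H from the gills (G) and mantles (M) of high-Cu oysters, and G1-L and M1-L from those of low-Cu oysters. The animals were adult *Crassostrea angulata*, the Fujian oyster, from a farming site, and G1 and M1 oysters were dissected without added Cu. The other 4 libraries (G2-H, M2-H, G2-L, M2-L) came from oysters exposed to Cu, at 30 µg/L in the water over 30 days, and were used to look up genes and lists described in the unexposed animals and in an alternative fit of the spread.

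Each library was made from 6 pooled oysters picked for the highest or the lowest tissue Cu, so that 1 library stood for each tissue and Cu class and no difference had a replicate check. One account of the study has the gills and the mantles taken from the same oysters, while its methods choose on the gills or the mantles, so whether the gill and mantle pools of a Cu class shared all of their animals is not settled. In a whole tissue, fewer cells of a type and less RNA per cell cannot be told apart.

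Copper is a cofactor of oxidases and of superoxide dismutase, and in excess it is bound by metallothioneins or moved out of cells. Oysters are known for storing large amounts of Cu in their soft tissues. The gill is a sheet of ciliated filaments that faces the seawater, and the mantle is a muscular tissue whose epithelium lays down the shell.

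Abundance was given as RPKM, the reads of a gene scaled to its length and to all reads counted in a library, and a change is high minus low log2(RPKM + 0.1), in which the added 0.1 understates the change of low genes. Genes needed a mean RPKM of at least 1 over the 4 libraries, which 20203 of 25647 met, and 7015 of those had no named annotation. Whole reads could be recovered from the RPKM values and totalled between 2013874 and 2328935 in the 4 libraries, with a median of 21 to 27 reads for a gene tested. The median change over all genes was 0.04 in gill and 0.03 in mantle. The tissues matched their labels: 60 ciliary genes such as axonemal dyneins summed to 5209 and 5455 RPKM in the high-Cu and low-Cu gills against 1705 and 1520 RPKM in the mantles, and 30 contractile muscle genes to 2580 and 2731 RPKM in the gills against 8430 and 6651 RPKM in the mantles. Of 59 shell formation genes, 14 were at 0 reads in G1-H and 16 in G1-L, and 1 in each mantle library. By level this list separated the tissues little. It summed to 956 and 1027 RPKM in the high-Cu and low-Cu gills against 1226 and 1124 RPKM in the mantles. Its share of reads ran the other way, at 0.290% and 0.310% in the gills and 0.250% and 0.240% in the mantles.

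In the gills, 3994 genes (19.8%) differed at least 2-fold between high-Cu and low-Cu oysters, 2003 higher (9.91%) and 1991 lower (9.85%). In the mantles 5006 genes did (24.8%), 2515 higher (12.4%) and 2491 lower (12.3%). A gene was then called only when Fisher's exact test of its recovered reads (two-sided, false discovery rate, FDR, at most 0.001 over all genes) was passed as well. That test compares 2 libraries, covers counting error alone and says nothing of the spread between oysters. It left 378 genes in gill (1.87%), 169 higher (0.837%) and 209 lower (1.03%), and 783 in mantle (3.88%), 414 higher (2.05%) and 369 lower (1.83%).

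Most of these calls were not shared by gill and mantle, though the shared part was larger than the share of all genes called. At least 2-fold changes went the same way in both tissues for 984 genes (4.87%), 452 higher (2.24%) and 532 lower (2.63%), and opposite ways for 815 (4.03%), of which 413 were higher in gill and lower in mantle (2.04%) and 402 the reverse (1.99%). Many of these genes were barely covered, and 886 of the 1799 had 0 reads in at least 1 library. With the read test in both tissues, 42 genes (0.208%) changed the same way, 19 higher (0.094%) and 23 lower (0.114%), and 18 (0.0891%) changed in opposite directions, 6 higher in gill and lower in mantle (0.0297%) and 12 the reverse (0.0594%). These 60 genes were 15.9% of the gill calls, beside 3.88% of all genes tested that were called in mantle. They were 7.66% of the mantle calls, beside 1.87% of all genes tested that were called in gill. The read test passes more easily for genes with many reads, and these shares of all genes are not matched for depth. By class, the 60 genes had medians of 31.5 to 73.5 reads in a library, against 21 to 27 for genes tested. The part of depth in the shared calls was not tested. The 2 changes had the same sign for 59.8% of gill calls and 58.7% of mantle calls, beside 54.1% of all genes tested. Across genes, which share libraries and are not independent replicates, Spearman's rho of the gill and mantle changes was 0.098, and it was 0.22 over the 6949 genes with a mean of at least 50 reads.

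**Figure D1:**
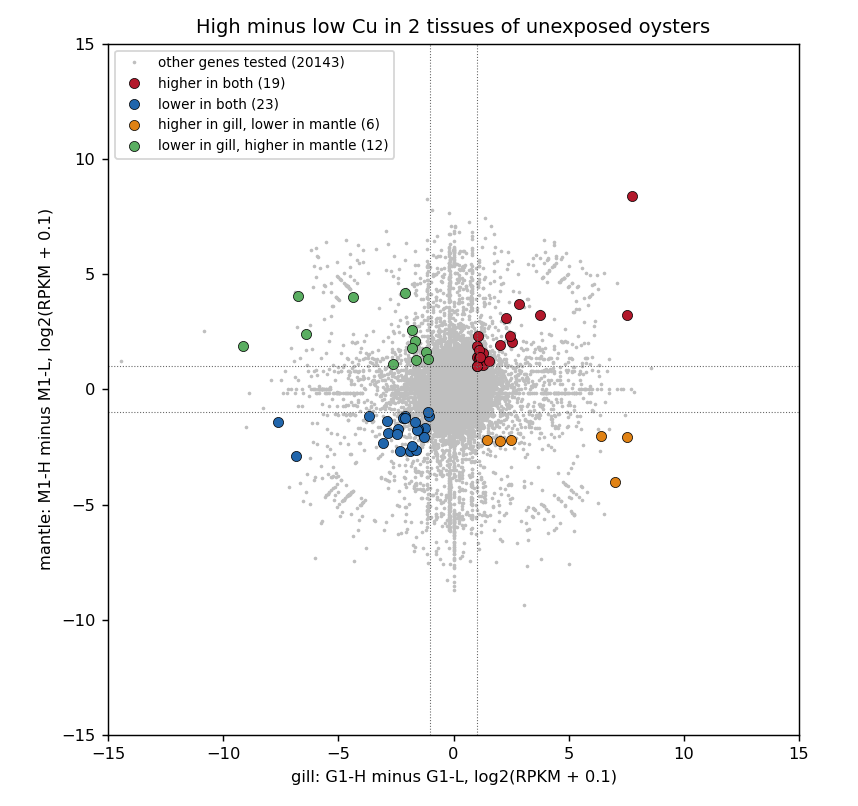
High minus low Cu change of each gene tested, in log2(RPKM + 0.1), in gill (x axis) and in mantle (y axis) of unexposed oysters, with dotted lines at 2-fold. Coloured points are the 60 genes past 2-fold and the read test in both tissues, 42 that changed the same way (red and blue) and 18 that changed in opposite directions (orange and green), and grey points are the other genes tested.

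The 19 genes higher in both tissues held 11 with a named annotation. Zinc finger protein 91 (OYG_10017452_10009752), of a family of DNA-binding proteins, had 37.4 RPKM in G1-H against 6.39 RPKM in G1-L, and 31.6 RPKM in M1-H against 7.62 RPKM in M1-L (386, 58, 315 and 68 reads). It was 5.85-fold higher in high-Cu gills (log2 change 2.53, 95% counting interval 2.15 to 2.97) and 4.15-fold higher in high-Cu mantles (2.04, 1.67 to 2.45), so both high-Cu libraries stood above both low-Cu ones. Protocadherin Fat 4 (OYG_10015666_10034059), a giant cadherin that in other animals orients cells within a sheet, had 623 reads in G1-H against 256 in G1-L, and 1565 in M1-H against 279 in M1-L. Its change of 1.08 in gill and 2.30 in mantle differed between the tissues (FDR 2.59e-15, exact conditional test of the reads of the 4 libraries).

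Dysferlin (OYG_10012393_10006402), which in vertebrates seals torn muscle membranes, had 17.8 RPKM in G1-H against 4.27 RPKM in G1-L and 25.4 RPKM in M1-H against 6.71 RPKM in M1-L, changes of 2.03 and 1.91. With the other gene of that annotation, the changes of the summed reads were 0.22 in both tissues. The apoptosis 1 inhibitor (OYG_10026772_10015216), of the family that blocks caspases, had 74.6 RPKM against 34.8 RPKM in high-Cu and low-Cu gills and 85.3 RPKM against 32.8 RPKM in the mantles, changes of 1.10 and 1.37. Summed over the 5 genes of that annotation the reads were 730 and 447 in the gills and 719 and 670 in the mantles, changes of 0.52 and -0.06, so the mantle rise was not seen over the family. CUB and sushi domain-containing protein 1 (OYG_10011253_10020681), whose mammalian form restrains complement, had 17.9 RPKM in G1-H against 8.38 RPKM in G1-L and 15.3 RPKM in M1-H against 4.63 RPKM in M1-L, changes of 1.09 and 1.70. In each of these 3 genes taken alone, both high-Cu libraries again stood above both low-Cu libraries. Erythronolide synthase (OYG_10024219_10041271), annotated by likeness to a bacterial polyketide synthase, was scarce in low-Cu oysters, with 35 reads in G1-H against 1 in G1-L and 44 in M1-H against 3 in M1-L.

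The other named genes of this class, chosen after their values were seen, were the Wnt receptor Frizzled-5 (OYG_10010787_10034086), with changes of 1.26 in gill and 1.08 in mantle, the endocytic receptor low-density lipoprotein receptor-related protein 1B (OYG_10018650_10036117), with 1.02 and 1.43, and the amidohydrolase ytcJ (OYG_10026449_10025052), with 1.03 and 1.90. The nuclear receptor ecdysone-induced protein 75B (OYG_10003107_10039912), known from insects, lay near the 2-fold limit at 1.01 and 1.02, as did vacuolar protein sorting-associated protein 13D (OYG_10017062_10018122) at 1.04 and 1.01. The remaining 8 genes had no named function. Of those, OYG_10008458_10005252 had 24 reads in G1-H and 36 in M1-H and 0 in both low-Cu libraries, which makes it at least 7.04-fold higher in gill and at least 10.7-fold higher in mantle when a floor of 3 reads stands in for 0.

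The 23 genes lower in both tissues held 15 with a named annotation. Caprin-2 (OYG_10015043_10037152), in vertebrates an RNA granule protein that ends in a C1q-like domain, was the most abundant, with 496 RPKM in G1-H against 2139 RPKM in G1-L and 757 RPKM in M1-H against 1694 RPKM in M1-L. It was 4.32-fold lower in high-Cu gills (log2 change -2.11, 95% counting interval -2.25 to -1.97) and 2.24-fold lower in high-Cu mantles (-1.16, -1.29 to -1.03). The unnamed gene with the preceding number, OYG_10015042_10037152, moved with it, at -2.40 and -1.72. Both genes are short, with 432 and 426 coding bases, and their IDs share the second number, so how far reads separate them is uncertain.

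Fibropellin-3 (OYG_10011268_10020357), named after an extracellular protein of sea urchin embryos, had 4.54 RPKM in G1-H against 38.5 RPKM in G1-L and 2.49 RPKM in M1-H against 13.0 RPKM in M1-L, changes of -3.06 and -2.34. The 5 genes of that annotation together had 3534 and 2998 reads in high-Cu and low-Cu gills and 760 and 512 in the mantles. With changes of 0.05 and 0.41, the fall was not seen over the family and is uncertain if these genes share reads. Interferon-induced protein 44-like (OYG_10013762_10020604), which in vertebrates follows viral infection, had 8.59 RPKM against 42.9 RPKM in high-Cu and low-Cu gills and 1.55 RPKM against 10.4 RPKM in the mantles, changes of -2.31 and -2.67. F-box only protein 15 (OYG_10018484_10034809), of the family that picks targets for ubiquitin ligases, had 3.16 RPKM in G1-H against 23.2 RPKM in G1-L and 7.14 RPKM in M1-H against 26.9 RPKM in M1-L, changes of -2.84 and -1.90. All 3 were lower in both high-Cu libraries than in either low-Cu library. Sarcoplasmic calcium-binding protein (OYG_10014139_10016478), a calcium buffer of invertebrate muscle, had 18.0 RPKM in G1-H against 63.0 RPKM in G1-L and 13.3 RPKM in M1-H against 73.0 RPKM in M1-L, changes of -1.80 and -2.44. Ankyrin-1 (OYG_10002778_10010002), which ties membrane proteins to the spectrin skeleton, had 0 reads in G1-H against 38 in G1-L, at least 14.4-fold lower, and 4 reads in M1-H against 29 in M1-L, 8.10-fold lower.

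**Figure D2:**
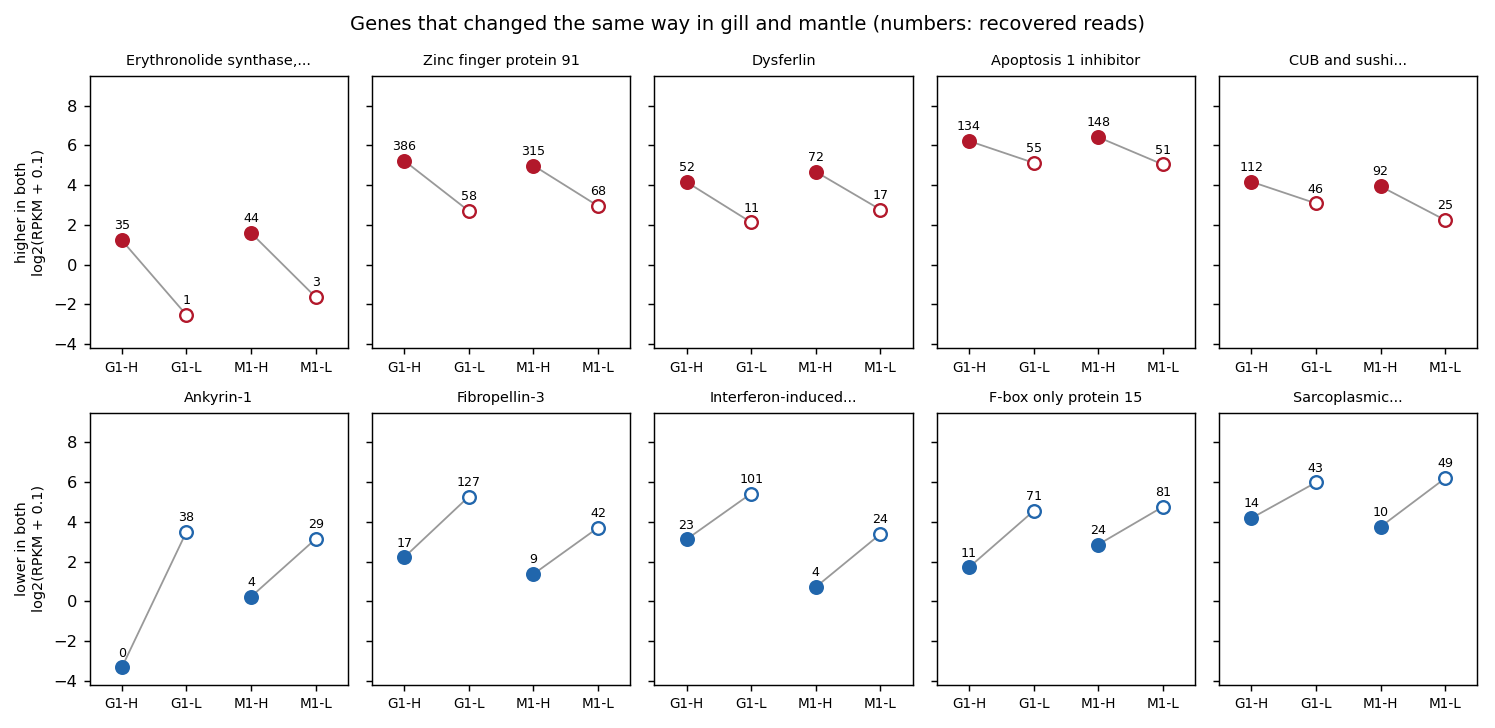
Level of the 5 named genes with the largest smaller-of-the-tissues change in each same-way class, in log2(RPKM + 0.1), in the gill and mantle libraries (filled points high Cu, open points low Cu), with the recovered reads above each point. The upper row (red) steps down and the lower row (blue) steps up on the way to each low-Cu library, in both tissues.

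Other named genes of this class, chosen after their values were seen, came from several families. Cytochrome P450 20A1 (OYG_10001261_10008295), an orphan enzyme of the P450 family, changed by -2.19 in gill and -1.25 in mantle. Baculoviral IAP repeat-containing protein 7-A (OYG_10020879_10035315), a further caspase inhibitor, changed by -2.09 and -1.23, the direction opposite to that of the apoptosis 1 inhibitor. A partial complement C1q-like protein 4 (OYG_10014945_10012123), of a large family of secreted recognition proteins, changed by -1.62 and -2.64, the proteoglycan versican (OYG_10003895_10039161) by -1.53 and -1.74, and tripartite motif-containing protein 2 (OYG_10003137_10032910) by -1.24 and -1.69. Cation transport regulator-like protein 1 (OYG_10003778_10036197), of the family of glutathione-degrading enzymes, changed by -1.11 in gill and lay just inside the 2-fold limit in mantle.

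Genes that share an annotation limit the reading of single ones, since how reads were divided among close copies is not known. Of the 60 genes called in both tissues, 21 shared their annotation with 1 to 4 other genes, and reads were summed over these. The sum kept both directions for 17 genes and also at least 2-fold in both tissues for 8, among them zinc finger protein 91, CUB and sushi domain-containing protein 1, versican and cation transport regulator-like protein 1. A direction turned for 4, the apoptosis 1 inhibitor, Fibropellin-3, Fibrocystin-L and 40S ribosomal protein S3a. Larger families such as the C1q-like genes were not summed. The 60S ribosomal protein L12 gene OYG_10000595_10020880 had 22 reads in G1-H against 62 in G1-L and 35 in M1-H against 84 in M1-L, changes of -1.67 and -1.42. A second gene of that name, OYG_10009164_10020880, had 47 reads in G1-H and 0 in G1-L. Summed over both copies the gills had 69 and 62 reads in the high-Cu and low-Cu libraries, a change of -0.03, so the change of either copy is uncertain, while in the mantles the sums were 67 and 99 reads, a change of -0.72.

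Among the 18 genes that changed in opposite directions, Fibrocystin-L (OYG_10018365_10033257), a large receptor-like membrane protein, had the smallest FDR for the difference between the tissues. It had 0.547 RPKM in G1-H against 55.1 RPKM in G1-L (4 and 354 reads), and 145 RPKM in M1-H against 27.1 RPKM in M1-L (1020 and 171 reads). High-Cu gills thus had 101-fold less of it (log2 change -6.41, 95% counting interval -8.54 to -5.28) and high-Cu mantles 5.34-fold more (2.41, 2.18 to 2.66), a difference between the tissues with an FDR of 1.23e-207 by the exact conditional test. The 5 genes of that annotation together had 1674 and 1386 reads in high-Cu and low-Cu gills, a change of 0.09, and 2081 and 753 in the mantles, a change of 1.31, so the gill fall was not seen over the family and is uncertain if these genes share reads.

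Retinal dehydrogenase 1 (OYG_10026868_10014187), which makes retinoic acid from retinal, went the other way and was chosen after its values were seen. It had 61.4 RPKM in G1-H against 22.1 RPKM in G1-L (246 and 78 reads) and 80.1 RPKM in M1-H against 371 RPKM in M1-L (310 and 1286 reads), changes of 1.47 and -2.21. The M1-L library stood above the other 3, and G1-L below them.

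All 6 genes higher in gill and lower in mantle had names. Collagen alpha-4(VI) chain (OYG_10023716_10031331), a filament collagen, had 4.24 RPKM in G1-H against 0.677 RPKM in G1-L and 0.308 RPKM in M1-H against 1.80 RPKM in M1-L, changes of 2.48 and -2.22. L-ascorbate oxidase (OYG_10008967_10008220), named after a multicopper enzyme of plants, had 17.7 RPKM in G1-H against 4.33 RPKM in G1-L and 1.39 RPKM in M1-H against 6.99 RPKM in M1-L, changes of 2.01 and -2.25. The other 3 had 0 reads in G1-L, and their gill folds are lower bounds. Otopetrin-2 (OYG_10027737_10010487), a proton channel, had 50 and 0 reads in high-Cu and low-Cu gills, at least 14.7-fold higher, and 49 and 182 reads in the mantles, 4.15-fold lower. With the other Otopetrin-2 gene, the changes of the summed reads were 0.44 and -1.56. Multiple epidermal growth factor-like domains 10 (OYG_10003976_10005014), an engulfment receptor in other animals, had 36 and 0 reads in the gills, at least 10.6-fold higher, and 1 and 18 reads in the mantles. A C1q-like protein 4 gene (OYG_10011342_10006021) had 21 and 0 reads in the gills, at least 6.16-fold higher, and 17 and 64 in the mantles, and reads of this family may be shared among its close copies.

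The 12 genes lower in gill and higher in mantle held 9 with names. Serine/threonine-protein phosphatase with EF-hands 1 (OYG_10027764_10032102), a calcium-regulated phosphatase, had 12 reads in G1-H against 46 in G1-L and 48 in M1-H against 2 in M1-L, changes of -2.09 and 4.20. The 5'-nucleotidase gene OYG_10016310_10008570, for an enzyme that frees adenosine, had 21.5 RPKM in G1-H against 75.9 RPKM in G1-L and 9.60 RPKM in M1-H against 1.53 RPKM in M1-L, changes of -1.82 and 2.57. Receptor-type tyrosine-protein phosphatase U (OYG_10022049_10024877), a receptor that removes phosphate from tyrosines, had 16.3 RPKM against 56.4 RPKM in high-Cu and low-Cu gills and 14.3 RPKM against 4.07 RPKM in the mantles, changes of -1.79 and 1.79. In these 3 genes G1-L was the highest of the 4 libraries or stood beside M1-H, and M1-L was the lowest.

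The 40S ribosomal protein S3a gene OYG_10001663_10037434 had 0 reads in G1-H against 62 in G1-L, at least 23.5-fold lower, and 75 in M1-H against 18 in M1-L, 3.73-fold higher. Its 3 copies together had 1876 and 2105 reads in high-Cu and low-Cu gills and 1651 and 2632 reads in the mantles, changes of -0.35 and -0.83, and the split of this copy is therefore uncertain. Protein O-linked-mannose beta-1,2-N-acetylglucosaminyltransferase 1 (OYG_10008388_10038890), a sugar transferase of the secretory path and chosen after its values were seen, had 65 reads in G1-H against 355 in G1-L and 206 in M1-H against 85 in M1-L, changes of -2.63 and 1.11.

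**Figure D3:**
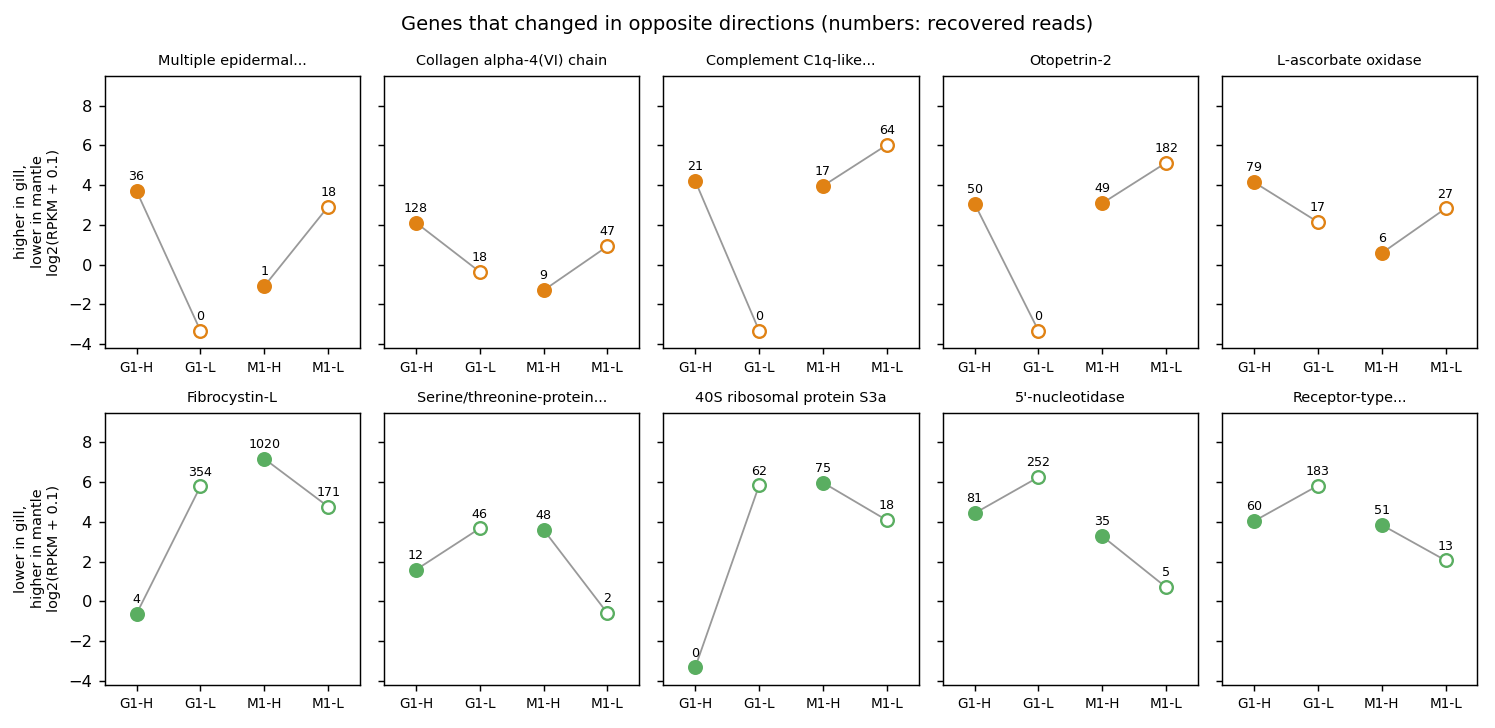
Level of the 5 named genes with the largest smaller-of-the-tissues change in each opposite-way class, in log2(RPKM + 0.1), in the gill and mantle libraries (filled points high Cu, open points low Cu), with the recovered reads above each point. Points at the foot of a panel are libraries with 0 reads, such as G1-L for Otopetrin-2 (50 and 0 reads in gill, 49 and 182 in mantle).

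Over all genes, the exact conditional test of the gill change against the mantle change was passed by 711 (3.52%, FDR at most 0.001, counting error only). A gene was placed in 1 tissue only if it was called there, changed less than 2-fold in the other and passed this test. Gill held 47 such genes higher (0.233%) and 53 lower (0.262%), and mantle 124 higher (0.614%) and 64 lower (0.317%).

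The gill-only genes with the largest changes upward were a 60S ribosomal protein L12 copy, as described above, the hemagglutinin/amebocyte aggregation factor (OYG_10018733_10017539), which clumps blood cells in horseshoe crabs, and a heat shock 70 kDa protein 12B gene (OYG_10006359_10013234). The aggregation factor had 38.5 RPKM in G1-H against 1.04 RPKM in G1-L and 8.54 RPKM in M1-H against 13.8 RPKM in M1-L. The heat shock gene had 53 and 3 reads in high-Cu and low-Cu gills and 22 and 31 in the mantles. Those that were lower included metalloproteinase inhibitor 3 (OYG_10000389_10036144), which checks matrix-cutting enzymes, with 0 reads in G1-H against 47 in G1-L and 73 reads in each mantle library, at least 17.8-fold lower in gill. Peroxidasin (OYG_10021733_10017015), a matrix peroxidase, had 0 reads in G1-H against 23 in G1-L, and 34 in M1-H against 19 in M1-L. A baculoviral IAP repeat-containing protein 7-A gene (OYG_10016363_10020337) had 15 reads in G1-H against 185 in G1-L, and 22 in M1-H against 35 in M1-L.

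The mantle-only genes with the largest rises were Protein VPRBP (OYG_10027448_10005108), a substrate receptor of a ubiquitin ligase, Fibropellin-1 (OYG_10027449_10005108) and the 78 kDa glucose-regulated protein (OYG_10028173_10021174), a chaperone of the endoplasmic reticulum. VPRBP had 9.25 RPKM in M1-H against 1.01 RPKM in M1-L and 3.33 RPKM in G1-H against 5.78 RPKM in G1-L. Fibropellin-1, numbered next to it, had 14.8 RPKM against 2.20 RPKM in high-Cu and low-Cu mantles and 4.65 RPKM against 4.02 RPKM in the gills. The chaperone had 43 and 6 reads in high-Cu and low-Cu mantles and 79 and 88 in the gills.

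The mantle-only genes with the largest falls were 2 transporters that were close to absent from gill and a C1q-like protein 4 gene. Monocarboxylate transporter 12 (OYG_10012588_10022009), which carries small acids across membranes, had 19 reads in M1-H against 3321 in M1-L, 195-fold lower, and 4 and 5 in the gills. An organic cation transporter (OYG_10024193_10019439) had 1.14 RPKM in M1-H against 73.8 RPKM in M1-L, and 1.66 RPKM in G1-H against 1.26 RPKM in G1-L. The C1q-like gene (OYG_10028278_10010355) had 1 read in M1-H against 49 in M1-L, and 14 in G1-H against 17 in G1-L.

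A group of genes like the first of these was drawn up after the values were seen and carries no test. Of the 125 genes called in mantle with at least 8-fold less in M1-H, 89 had at most 5 reads in each gill library, which 17.5% of all genes tested had. Of the 27 genes called with at least 8-fold more in M1-H, 9 did. The rule picks genes that are high in M1-L, which can also carry them past the filter, so the share of all genes is no test. Of the 89 genes, 86 were highest in M1-L of the 8 libraries. Reads of the 89 genes summed to 203 in M1-H against 10233 in M1-L, which was 0.508% of that library. In exposed mantles the sums were 2299 in M2-H and 1981 in M2-L, and over the 4 gill libraries they lay between 86 and 288. Of the 89 genes, 59 were higher and 25 lower in M2-H than in M2-L, where the median change over all genes tested was itself 0.30. By at least 2-fold, 34 of the 89 were higher and 14 lower there, beside 28.8% and 12.1% of all genes tested.

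The next category was drawn up after values were seen, on genes picked for being high in M1-L, so its shares are no test. Transporters, carriers and channels by annotation made up 26 of these 89 genes (29.2%), beside 2.47% of all genes tested. They included monocarboxylate transporter 2 (5 reads in M1-H against 985 in M1-L), a sodium-dependent multivitamin transporter (6 against 419), solute carrier family 23 member 2, a carrier of vitamin C in mammals (2 against 256), and a sodium- and chloride-dependent taurine transporter (0 against 138). Gamma-glutamyltranspeptidase 1, which splits glutathione outside cells, had 7 reads in M1-H against 525 in M1-L, and a copper-containing amiloride-sensitive amine oxidase 9 against 384. Without the 89 genes 694 mantle calls and 280 falls remained. The part of the M1-L library in these falls was not tested.

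The gene lists that follow were matched on annotation, and their members are set beside all genes tested. Genes with many reads pass the read tests at smaller changes, and the shares of lists and of all genes were not matched for depth. Copper handling genes (62 tested, among them metallothioneins, laccases, ascorbate oxidases and ceruloplasmin) had medians of 0.00 in gill and 0.16 in mantle. They had 2 higher and 0 lower calls in gill (3.23%, beside 1.87% of all genes). In mantle they had 2 higher and 6 lower calls (12.9%, beside 3.88%). The lower mantle calls included an L-ascorbate oxidase gene (OYG_10017377_10023294), with 5 reads in M1-H against 122 in M1-L. They also included Laccase-1 (OYG_10009565_10011081), with 1 read in M1-H against 20 in M1-L. These genes belonged to the group above of mantle falls that were near 0 in gill. The part of that group in the mantle share was not tested. Laccase-6 (OYG_10014280_10019343), a multicopper oxidase, had 148 reads in G1-H against 26 in G1-L, a change of 2.31, and 44 in M1-H against 37 in M1-L. Dopamine beta-hydroxylase (OYG_10001849_10040840), a copper enzyme of noradrenaline synthesis in vertebrates, had 951 and 1286 reads in high-Cu and low-Cu gills and 207 and 469 in the mantles, changes of -0.62 and -1.34. Ceruloplasmin (OYG_10006923_10010814), a copper ferroxidase in vertebrates, had 1022 and 641 reads in high-Cu and low-Cu gills and 1202 and 1267 in the mantles, changes of 0.49 and -0.24 that differed between the tissues (FDR 9.70e-13, exact conditional test).

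None of the 5 metallothionein genes tested was called in either tissue. Of the 2 most abundant, OYG_10021194_10012460 had 55.6 RPKM in G1-H against 64.8 RPKM in G1-L and 67.2 RPKM in M1-H against 58.2 RPKM in M1-L. The second of them, OYG_10012042_10029507, had 37.7 RPKM against 59.3 RPKM in high-Cu and low-Cu gills and 58.5 RPKM against 92.3 RPKM in the mantles, changes of -0.65 and -0.66 with an FDR of 0.217 and 0.0771 by Fisher's exact test. The other 3 had at most 15 reads in any of the 4 libraries.

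Superoxide dismutases, which remove superoxide, took 1.21% and 1.05% of the reads in high-Cu and low-Cu gills and 2.46% and 2.65% in the mantles. Their 8 members had medians of 0.30 in gill and -0.42 in mantle, and 4 passed the test of the difference between tissues (50%, beside 3.52% of all genes). Their median level was 274 to 785 RPKM over the 4 libraries, and the share of all genes is not matched for that depth. The extracellular copper-zinc form OYG_10004092_10030581 had 6613 reads in G1-H against 3363 in G1-L, a change of 0.79, and 9142 in M1-H against 14368 in M1-L, a change of -0.81. OYG_10018833_10030584 split likewise, at 0.39 and -0.56. The most abundant form, OYG_10026148_10030582, went the other way, with 15609 and 13933 reads in high-Cu and low-Cu gills and 34446 and 25465 in the mantles, changes of -0.02 and 0.28. Only 1 member, OYG_10000265_10030585, was called, with 81 reads in M1-H against 223 in M1-L, a change of -1.62. These are close relatives, and reads may be shared among them.

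Genes of peroxide and glutathione defence (56 tested) had medians of 0.04 in gill and -0.42 in mantle, where 44 members had lower values in high-Cu oysters (78.6%, beside 47.4% of all genes). Gill had 0 calls (1.87% of all genes), and mantle 3, all lower (5.36%, beside 3.88% of all genes). A glutathione S-transferase A gene (OYG_10013077_10031957), of the enzymes that join glutathione to toxic molecules, had 331 reads in G1-H against 182 in G1-L and 175 in M1-H against 334 in M1-L, changes of 0.68 and -1.09. A second one (OYG_10019456_10017041) had 89 and 47 reads in high-Cu and low-Cu gills and 37 and 101 in the mantles, and the changes of both genes differed between tissues by the exact conditional test (FDR 5.81e-19 and 1.73e-08). Among other chaperones and folding enzymes (66 tested), 7 passed that test (10.6%, beside 3.52% of all genes), and heat shock protein beta-1 (OYG_10017582_10033789), a small heat shock protein, had 2470 and 1624 reads in high-Cu and low-Cu gills and 1625 and 2246 in the mantles.

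Cytosolic ribosomal proteins moved together by small steps. Of 85 tested, 72 had lower values in high-Cu oysters in both tissues (84.7%, beside 24.2% of all genes), with medians of -0.30 in gill and -0.36 in mantle. They took 9.22% of the reads in G1-H against 11% in G1-L, and 10.4% in M1-H against 13.2% in M1-L. The 40S ribosomal protein S4 gene OYG_10016741_10016116 had 4841 and 5093 reads in high-Cu and low-Cu gills and 5070 and 6681 in the mantles, changes of -0.26 and -0.56. Few members reached 2-fold, with 1 higher and 2 lower calls in gill (3.53%, beside 1.87% of all genes) and 2 higher and 3 lower calls in mantle (5.88%, beside 3.88%). In exposed oysters 72 members had lower values in G2-H and 81 in M2-H, with medians of -0.17 and -0.86. Proteasome subunits (37 tested) had no call, medians of -0.27 and -0.34, and 22 members with lower and 0 with higher values in both tissues. For 47 subunits of the mitochondrial respiratory chain the medians were -0.06 in gill and -0.30 in mantle, again with 0 calls in either. In exposed oysters the proteasome medians were 0.14 in gill, where 26 members had higher values in G2-H, and -0.56 in mantle, and those of the respiratory chain 0.28, with 38 members higher, and -0.36.

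**Figure D4:**
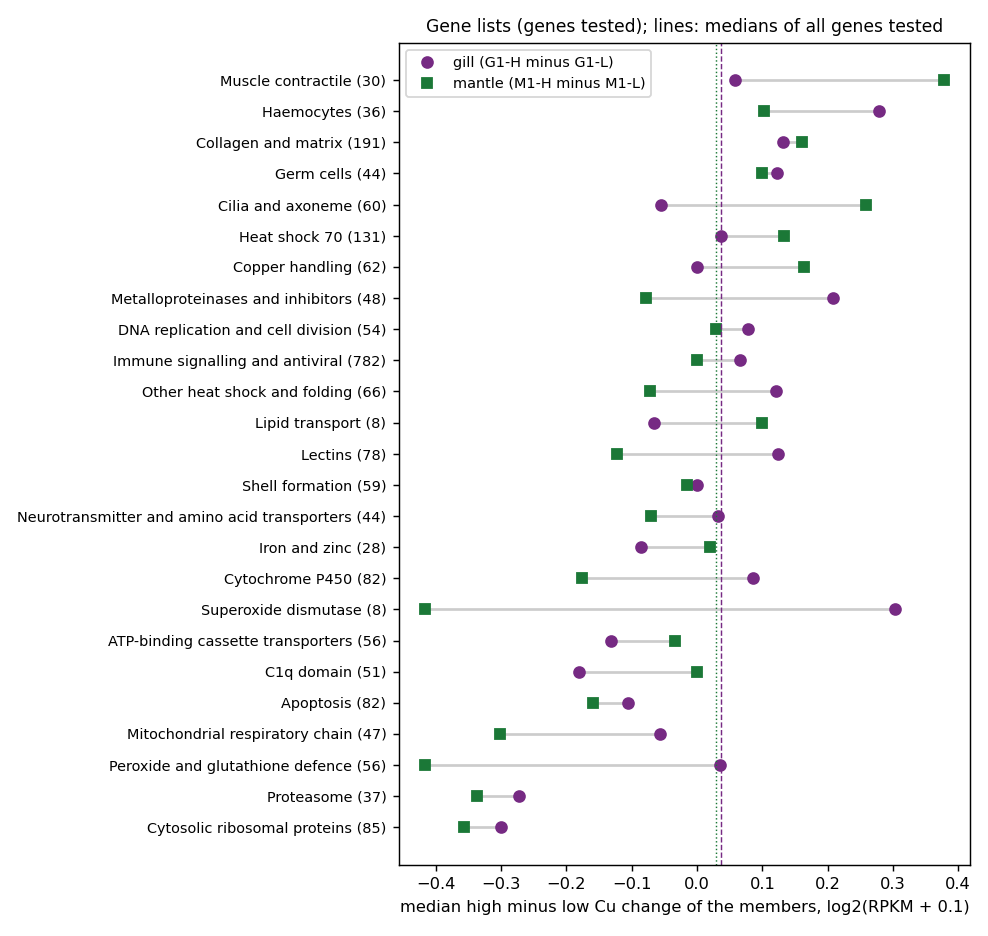
Median high minus low Cu change of the tested members of 25 gene lists, in log2(RPKM + 0.1), in gill (purple circles) and mantle (green squares), with the number of genes tested in brackets and a dashed and a dotted line at the gill and mantle medians of all genes tested (0.04 and 0.03). Cytosolic ribosomal proteins and proteasome subunits lay below 0 in both tissues (-0.30 and -0.36, -0.27 and -0.34), and superoxide dismutases lay on either side of it (0.30 and -0.42).

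Carriers of neurotransmitters and amino acids, which clear signalling molecules from around cells, were called mostly in mantle. Of 44 tested, mantle had 9 higher and 5 lower calls (31.8%, beside 3.88% of all genes), gill 1 higher and 1 lower (4.55%, beside 1.87%), and 12 passed the test of the difference between tissues (27.3%, beside 3.52%). A glycine transporter gene (OYG_10011255_10012210) had 958 reads in M1-H against 307 in M1-L, a change of 1.48, and 699 in G1-H against 549 in G1-L, a change of 0.16. Another (OYG_10015185_10002797) had 10 reads in M1-H against 119 in M1-L and 88 in G1-H against 95 in G1-L. Excitatory amino acid transporter 1 (OYG_10017841_10008053), a glutamate carrier, was the 1 call lower in high-Cu gills, with 52 and 199 reads in high-Cu and low-Cu gills and 59 and 62 in the mantles. Of the 5 mantle falls, 3 were among the 89 genes above and had 0 reads in both gill libraries.

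ATP-binding cassette transporters (56 tested), pumps that include exporters of drugs and metals, had 1 higher and 1 lower call in gill (3.57%, beside 1.87% of all genes) and 5 higher and 3 lower calls in mantle (14.3%, beside 3.88%). Multidrug resistance-associated protein 1 (OYG_10025447_10019900) had 1552 reads in M1-H against 605 in M1-L, a change of 1.20, and 284 in G1-H against 228 in G1-L, a change of 0.13. Multidrug resistance-associated protein 5 (OYG_10005121_10013784) went the opposite way in mantle, with 34 reads in M1-H against 433 in M1-L, and had 27 and 14 in high-Cu and low-Cu gills. In gill the cholesterol pump ATP-binding cassette sub-family G member 1 (OYG_10024982_10010671) had 702 reads in G1-H against 1247 in G1-L, a change of -1.01, and 533 in M1-H against 493 in M1-L.

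Regulators of apoptosis (82 tested) were called mostly in gill, with 1 higher and 9 lower calls there (12.2%, beside 1.87% of all genes), against 1 higher and 2 lower in mantle (3.66%, beside 3.88%). Of the 9 lower calls in gill, 8 were inhibitors of apoptosis by annotation. The inhibitors among all 82 genes tested were not counted, so whether 8 of 9 exceeds their share of the list is not known. Baculoviral IAP repeat-containing protein 2 (OYG_10026316_10022648) had 218 reads in G1-H against 838 in G1-L, a change of -2.13, and 214 in M1-H against 208 in M1-L. The neighbouring inhibitor genes OYG_10005392_10006012 and OYG_10005393_10006012 had 11 and 32 reads in G1-H against 91 and 119 in G1-L, and 12 and 17 reads in M1-H against 13 and 23 in M1-L. Members of this family resemble each other, and how reads were split between them is uncertain.

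Matrix genes (191 collagens, laminins, fibrillins and their like) had 3 higher and 2 lower calls in gill (2.62%, beside 1.87% of all genes) and 11 higher and 4 lower calls in mantle (7.85%, beside 3.88%), and 19 passed the test of the difference between tissues (9.95%, beside 3.52%). Collagen alpha-1(IV) chain (OYG_10018042_10019611), of basement membranes, had 713 reads in G1-H against 232 in G1-L, a change of 1.43, and 1399 in M1-H against 916 in M1-L, a change of 0.45. Tenascin-R (OYG_10003430_10031975) had 113 reads in G1-H against 612 in G1-L and 62 in M1-H against 71 in M1-L. Fibrillin-3 (OYG_10018675_10033139), of elastic microfibrils, had 606 reads in M1-H against 152 in M1-L and 81 in G1-H against 70 in G1-L. Of the 30 muscle genes, 25 had higher and 5 lower values in high-Cu than in low-Cu mantles (16.7% lower, beside 47.4% of all genes), with a median of 0.38 in mantle and 0.06 in gill, and 7 differed between tissues (23.3%), paramyosin (OYG_10001653_10036282), of the thick filaments of invertebrate muscle, having 10528 reads in M1-H against 5472 in M1-L. The 60 ciliary genes had medians of -0.06 in gill and 0.26 in mantle, and the part of these markers in the mantle changes was not tested.

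Of the 51 C1q domain genes, 1 was called the same way in both tissues and 1 in opposite directions. Lectins had 0 of either kind, and the 782 immune signalling and antiviral genes had 2 called the same way and 0 in opposite directions. Of all genes tested, 0.208% were called the same way and 0.0891% in opposite directions. Beside 1.87% of all genes in gill and 3.88% in mantle, C1q domain genes (51 tested) had 1 higher and 3 lower calls in gill (7.84%) and 1 higher and 6 lower calls in mantle (13.7%). Lectins (78 tested), which bind sugars on microbes, had 2 higher and 4 lower calls in gill (7.69%) and 1 higher and 6 lower calls in mantle (8.97%). The 782 genes of immune signalling and antiviral defence had 6 higher and 5 lower calls in gill (1.41%) and 5 higher and 11 lower calls in mantle (2.05%), in each tissue a smaller share than that of all genes. A rhamnose-binding lectin (OYG_10023710_10019491) had 29 reads in G1-H against 181 in G1-L, a change of -2.82, and 192 in M1-H against 252 in M1-L, a change of -0.55. Marker genes of haemocytes, the circulating blood cells (36 tested), had medians of 0.28 in gill and 0.10 in mantle and summed to 1101 and 912 RPKM in high-Cu and low-Cu gills and 1092 and 985 RPKM in the mantles. Germ cell markers (44 tested) had medians of 0.12 in gill and 0.10 in mantle, with 28 and 25 members higher in high-Cu oysters. Their sums ran the other way, at 1851 and 2292 RPKM in the gills and 1294 and 1347 RPKM in the mantles. These sums include an abundant zonadhesin gene (OYG_10001592_10011205), named after a sperm protein. It had 299.6 RPKM in G1-H against 726 RPKM in G1-L and 285 RPKM in M1-H against 401 RPKM in M1-L. Vitellogenin-6 (OYG_10021817_10016541), a yolk protein, had 100 reads in G1-H against 7 in G1-L, a change of 3.40, and 43 in M1-H against 30 in M1-L.

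Other lists are set beside calls for 1.87% of all genes in gill and 3.88% in mantle. The heat shock 70 family (131 tested) had 3 higher and 1 lower calls in gill (3.05%) and 3 of each in mantle (4.58%). Cytochrome P450 genes (82 tested) had 1 lower call in gill (1.22%) and 4 lower calls in mantle (4.88%). Genes of DNA replication and cell division (54 tested) had none in either tissue. Ferritin (OYG_10027591_10009092), the iron store, had 6777 reads in G1-H against 9149 in G1-L, a change of -0.62, and 13053 in M1-H against 14159 in M1-L, a change of -0.28.

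The exposed oysters were other animals, and their libraries took no part in choosing the 60 genes. Of the 23 genes lower in both unexposed tissues, 10 were also at least 2-fold lower in high-Cu oysters in both exposed tissues, against 4.44% of all genes tested, and 14 were lower in both by any amount (21.7% of all genes). Caprin-2 (OYG_10015043_10037152) had 36 reads in G2-H against 268 in G2-L and 350 in M2-H against 910 in M2-L. The unnamed genes OYG_10006117_10036861 and OYG_10006118_10027661, numbered in a row, had 1 read each in G2-H against 974 and 127 in G2-L, and 309 and 25 reads in M2-H against 2346 and 297 in M2-L, while in unexposed oysters they had 3 and 0 reads in G1-H against 34 and 14 in G1-L, and 88 and 28 reads in M1-H against 173 and 68 in M1-L. Sarcoplasmic calcium-binding protein (OYG_10014139_10016478) changed by -1.92 in exposed gill and -1.62 in exposed mantle, cation transport regulator-like protein 1 by -2.33 and -1.94, and baculoviral IAP repeat-containing protein 7-A (OYG_10020879_10035315) by -1.49 and -2.56. Ankyrin-1 did not recur, with 31 reads in G2-H against 18 in G2-L and 20 in M2-H against 3 in M2-L.

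Of the 19 genes higher in both unexposed tissues, 4 were at least 2-fold higher in both exposed tissues, against 5.5% of all genes, and 12 were higher by any amount (37.7% of all genes). The median change over all genes in exposed oysters was itself 0.09 in gill and 0.30 in mantle. With these shifts taken off, which was tried after seeing the data, the counts stayed at 4 genes higher (4.13% of all genes) and 10 lower (5.72%). Protocadherin Fat 4 (OYG_10015666_10034059) had 1093 reads in G2-H against 390 in G2-L and 570 in M2-H against 73 in M2-L, and CUB and sushi domain-containing protein 1 (OYG_10011253_10020681) had 671 and 266 reads in high-Cu and low-Cu exposed gills and 352 and 11 in the exposed mantles. Erythronolide synthase changed by 2.63 and 1.39 there. Zinc finger protein 91 (OYG_10017452_10009752) had 289 reads in G2-H against 225 in G2-L and 90 in M2-H against 78 in M2-L, changes of 0.29 and 0.13.

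The genes that split by tissue were too few to say how often such splits recur. None of the 6 genes higher in gill and lower in mantle split that way by at least 2-fold in exposed oysters (1.48% of all genes), and 1 of the 12 reverse ones did (2.26%). That gene, chosen after its values were seen, was the IgGFc-binding protein (OYG_10015609_10015368), a mucus protein in mammals, with 193 reads in G1-H against 548 in G1-L, 40 in M1-H against 7 in M1-L, 149 in G2-H against 599 in G2-L and 29 in M2-H against 9 in M2-L. Fibrocystin-L was again lower in high-Cu gills, with 3 reads in G2-H against 107 in G2-L, and had 360 in M2-H against 457 in M2-L.

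**Figure D5:**
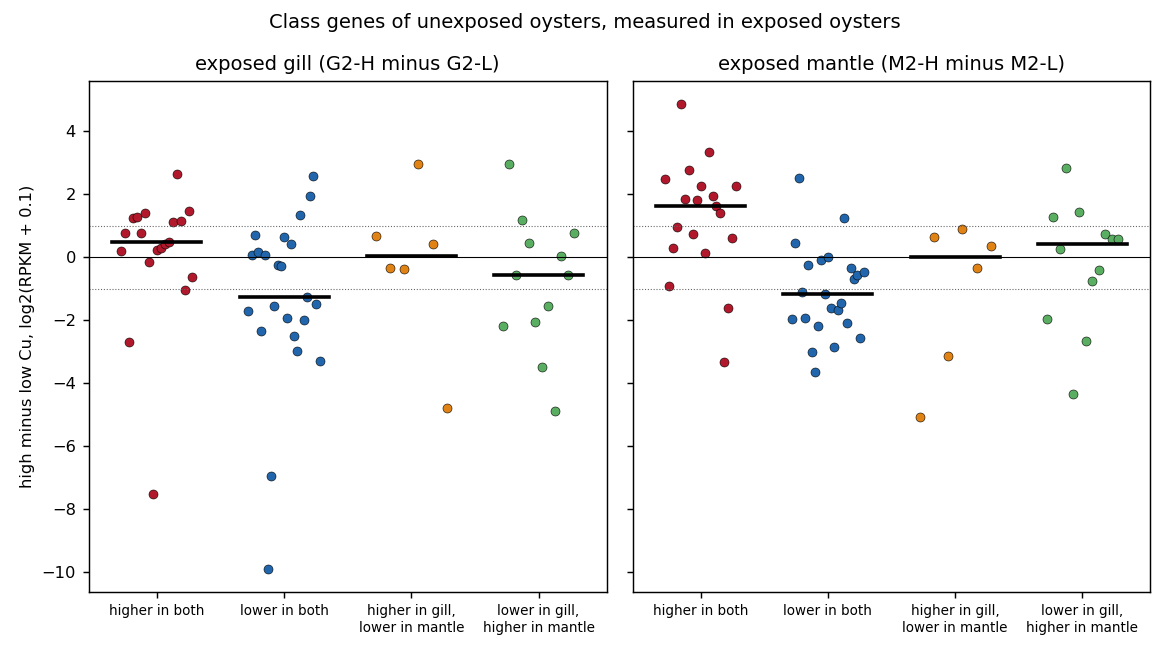
High minus low Cu change in exposed gill (left) and exposed mantle (right), in log2(RPKM + 0.1), of the 60 genes called in both tissues of unexposed oysters, by the class they held there. Points are genes, bars are class medians (0.48 and 1.62 for genes higher in both, -1.28 and -1.16 for genes lower in both), and dotted lines mark 2-fold.

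When the high minus low change was tested over both tissues with limma, with tissue as a block and the spread taken from how far a gene's gill and mantle changes differed, 0 genes had an adjusted p under 0.05 and 1196 (5.92%) an unadjusted p under 0.05. The smallest adjusted p was 0.746. By limma with voom on the recovered reads and the same block, 0 genes had an adjusted and 1736 an unadjusted p under 0.05. This fit had 4 libraries and 1 residual degree of freedom, and the gill and mantle of a Cu class may share oysters, so it is no check over animals. The gene with the smallest unadjusted p was an unnamed one annotated by likeness to the bacterial yghX (OYG_10005508_10020014), with 262 reads in G1-H against 42 in G1-L and 326 in M1-H against 58 in M1-L, a limma change of 2.39 ± 0.16 (SE).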

How the data were processed

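The authors filtered the sequenced tags with Perl scripts, mapped them to the *Crassostrea gigas* genome with TopHat, which the study's methods name as tophat2 (Cufflinks is also listed in the submitters' processing notes; exact versions are not given in the sources used here) and deposited RPKM values for 25647 genes, in which a dash was read as 0. Library preparation is described in more than 1 way, as tags and as random fragments, and reads carried no molecular identifiers. All 8 columns of values were matched to libraries by name.

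The steps of the RPKM values gave whole reads (tolerance 0.02) for 100% of values over 25181 genes, and these reads summed to 99.9% of each library total. Fisher's exact test, Clopper-Pearson intervals (95%) and the exact conditional test of the gill against the mantle change used these reads, with Benjamini-Hochberg adjustment over all genes tested, and folds against 0 used a floor of 3 reads. Precision is set by these counts and covers counting error only. Apart from limma by voom on the recovered reads, no count model was run.

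Models were fitted with limma 3.58.1 (R 4.3.3) with an intensity trend, and other steps used Python 3.11.15 with scipy 1.17.1, numpy 2.4.6, matplotlib 3.10.9 and pandas 2.3.3. Steps were tested on simulated data. Alternatives were pseudocounts of 1 and 0.01, other filters and thresholds, centring, quantile normalization, the most abundant 100 genes left out of the totals, and limma without the block or the trend, over all 8 libraries, or by voom on recovered reads.

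Named genes were the 5 with the largest smaller-of-the-tissues change in each class of genes called in both tissues, the 3 largest up and down among genes called in 1 tissue only, and list members that were called in both tissues or were among the 3 most abundant of a list. Other genes named, including the further list members, were chosen after their values were seen. The members and lists were chosen with earlier results of these data known, and the lists were edited after a first run, on which names they matched and not on values. Gene names are those of the deposited annotation, and since 0 IDs matched the RefSeq gene table, neither coordinates nor sequences are given. Cu concentrations, qRT-PCR and injections were not analysed here.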

Additional observations from a re-analysis of the deposited data

Results flagged for a closer look

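The change between high-Cu and low-Cu oysters differed between gill and mantle, by the exact conditional test of reads, for 711 genes, and the following values are gill change minus mantle change for the named ones, each a difference between single libraries. Among genes higher in gill and lower in mantle the difference was 11.03 for multiple epidermal growth factor-like domains 10, 9.60 for the C1q-like protein 4 gene OYG_10011342_10006021, 8.43 for Otopetrin-2, 4.70 for collagen alpha-4(VI) chain, 4.26 for L-ascorbate oxidase and 3.68 for retinal dehydrogenase 1. The first 3 of these have a library at 0 reads, and their size depends on the pseudocount.

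Among genes lower in gill and higher in mantle it was -11.05 for 40S ribosomal protein S3a, -8.83 for Fibrocystin-L, -6.29 for serine/threonine-protein phosphatase with EF-hands 1, -4.39 for 5'-nucleotidase and -3.80 for IgGFc-binding protein. It was -3.74 for protein O-linked-mannose beta-1,2-N-acetylglucosaminyltransferase 1, -3.58 for receptor-type tyrosine-protein phosphatase U, -2.80 for low-density lipoprotein receptor-related protein 4 and -2.42 for neurogenic locus notch-like protein 1. The unnamed genes had -10.82 (OYG_10002918_10031742), -8.39 (OYG_10012422_10032839) and -2.90 (OYG_10017349_10004808). Of these, 40S ribosomal protein S3a and OYG_10002918_10031742 have a library at 0 reads.

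Among genes called in gill only it was 7.64 for 60S ribosomal protein L12, 5.76 for the hemagglutinin/amebocyte aggregation factor, 4.37 for heat shock 70 kDa protein 12B, -8.71 for metalloproteinase inhibitor 3, -6.16 for peroxidasin and -2.97 for baculoviral IAP repeat-containing protein 7-A, with a library at 0 reads for the L12, inhibitor 3 and peroxidasin genes. Among genes called in mantle only it was 7.11 for monocarboxylate transporter 12, 6.27 for the organic cation transporter, 4.95 for the C1q-like protein 4 gene OYG_10028278_10010355, -3.85 for Protein VPRBP, -2.95 for the 78 kDa glucose-regulated protein and -2.49 for Fibropellin-1.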

How the results depend on the processing

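With a pseudocount of 1, 530 genes changed at least 2-fold the same way (244 higher, 286 lower) and 422 in opposite directions, with mean RPKM at or above 5 there were 323 (150 and 173) and 226, and with a log2 threshold of 2 they were 285 (129 and 156) and 229. With a mean of at least 50 reads, an alternative chosen after seeing the data, they were 44 (25 and 19) and 26. Without a filter 1290 genes changed in opposite directions. An FDR of 0.05 gave 92 same-way and 52 opposite calls, 846 in gill, 1497 in mantle and 1802 genes that differed between tissues, and a 4-fold ratio gave 10, 9, 154 and 286 for the first 4. Centring, quantile normalization and a pseudocount of 0.01 kept the 2-fold counts within 1.5 times, and leaving the 100 most abundant genes out of the totals did so for the counts with the read test in 1 or both tissues. None of these was run for the difference between tissues. None of 480 recomputed changes of the genes called in both tissues reversed, but 9 fell under 2-fold with a pseudocount of 1, 5 with centring and 6 with quantile normalization, and 3 of 50 list medians changed sign with centring. By limma 0 genes had an adjusted p under 0.05 in any fit (smallest 0.148, by voom). Without the tissue block, which stands for the pairing of gill and mantle, 389 genes had an unadjusted p under 0.05, over all 8 libraries 774 did, and by voom 1736. By sign alone, 12 of the 19 genes higher in both tissues were higher in both exposed tissues. Centring the exposed pairs, also chosen after seeing the data, left the recurring counts at 4 and 10, beside 4.13% and 5.72% of all genes. With 1 library per group no library could be left out, and depth limits the 2-fold classes, whose genes had a median of 3 or 4 reads in a library.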
